A study of Mus musculus with 42 samples.

Results

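The circadian clock genes Per1, Per2, Per3, Nr1d1, Nr1d2, Dbp, Tef, Ciart, Npas2 and Clock were followed in mouse joint soft tissue and lymph nodes after knee arthroplasty, as a check on the hour at which tissues were taken. They were chosen by symbol, through their Ensembl identifiers, and all 10 of 10 were found among the 36604 genes of the joint table and the 54752 of the node table. All 10 passed the filter on low counts in each tissue. The study profiled wild-type C57BL/6 mice. Joint soft tissue gave 24 libraries, 4 for each of RST on days 3, 7, 14, 21 and 35 and 4 for LST on day 35, codes that the labels leave unexplained. Because LST was taken on day 35 only, a difference of an earlier RST day from it mixes label and day. Lymph nodes gave 18 libraries, 3 for each node type (Implant, ContraImplant and NoImplant) at day 7 and at day 14. The table's headers name Implant nodes as surgery and both other types as no surgery. Implant and ContraImplant nodes carry shared mouse numbers, 1 node of each kind from each of 6 mice, and NoImplant nodes came from 6 other mice. The sources used here give neither the age of the mice nor the hour of collection.

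The clock is a feedback loop that runs in most cells. CLOCK, or its relative NPAS2, pairs with BMAL1 (gene Arntl) and switches on genes through E-boxes in their promoters. The targets include the repressors Per1, Per2, Per3 and Ciart, the nuclear receptors Nr1d1 and Nr1d2 (REV-ERB alpha and beta), and the transcription factors Dbp and Tef, which act through D-boxes. PER proteins with cryptochromes stop the activators, and the REV-ERBs silence Arntl, Npas2 and Clock through ROR elements. Outputs such as Dbp and Per3 therefore peak at about the opposite time of day from Arntl and Npas2. Per1 and Per2 also respond quickly to glucocorticoids and other signals outside the clock.

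The upstream sequences of 5 members are shown because they carry these elements in different mixes. They are the 250 bases before the start site of 1 RefSeq transcript each (GRCm38.p6, 5′ to 3′ on the gene's strand), with E-boxes (CACGTG), D-boxes (TTATGTAA) and ROR or REV-ERB elements (AGGTCA, or TGACCT on the other strand) in capitals.
Ciart, chr3:95882229-95882478, minus strand: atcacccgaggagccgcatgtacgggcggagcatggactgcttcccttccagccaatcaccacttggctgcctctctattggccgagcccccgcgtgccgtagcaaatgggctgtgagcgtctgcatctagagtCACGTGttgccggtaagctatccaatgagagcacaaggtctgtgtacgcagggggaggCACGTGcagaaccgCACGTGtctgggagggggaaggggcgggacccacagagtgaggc
Per3, chr4:151044666-151044915, minus strand: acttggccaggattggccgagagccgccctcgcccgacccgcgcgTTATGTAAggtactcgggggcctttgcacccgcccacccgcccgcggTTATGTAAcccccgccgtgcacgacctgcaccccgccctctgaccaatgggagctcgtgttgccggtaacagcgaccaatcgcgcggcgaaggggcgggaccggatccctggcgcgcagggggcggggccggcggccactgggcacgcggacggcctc
Tef, chr15:81802423-81802672, plus strand: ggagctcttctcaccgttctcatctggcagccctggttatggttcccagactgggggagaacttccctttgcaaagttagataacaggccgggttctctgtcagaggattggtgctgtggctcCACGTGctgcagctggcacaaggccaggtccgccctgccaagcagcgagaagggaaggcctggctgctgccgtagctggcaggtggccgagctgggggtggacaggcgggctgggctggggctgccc
Nr1d2, chr14:18239107-18239356, minus strand: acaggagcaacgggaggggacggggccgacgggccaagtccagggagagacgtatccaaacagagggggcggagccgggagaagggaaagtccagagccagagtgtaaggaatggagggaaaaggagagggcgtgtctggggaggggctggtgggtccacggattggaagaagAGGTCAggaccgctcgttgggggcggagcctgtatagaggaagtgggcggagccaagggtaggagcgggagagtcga
Per1, chr11:69098699-69098948, plus strand: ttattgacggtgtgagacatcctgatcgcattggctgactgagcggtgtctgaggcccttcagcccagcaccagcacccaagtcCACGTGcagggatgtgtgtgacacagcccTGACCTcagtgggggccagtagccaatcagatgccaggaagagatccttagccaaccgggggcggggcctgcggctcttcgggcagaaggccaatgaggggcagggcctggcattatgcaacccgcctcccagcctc
Ciart had 3 E-boxes, starting 116, 58 and 44 bases before its start site. Per3 had 2 D-boxes, the element that Dbp and Tef bind, starting 205 and 158 bases before the start. Tef had 1 E-box, Nr1d2 had 1 AGGTCA, and Per1 had 1 E-box and 1 TGACCT. Windows from 250 bases before to 50 bases after the start were found for 9 of the 10 members, 13 windows in all, and not for Per2. E-boxes were in 4 of these 13 windows and in 7.15% of all 32851 windows of the table. TTATGTAA, searched on both strands, was in 1 of 13 and in 0.938% of all, and AGGTCA in 3 of 13 and 16.3% of all. The alternative D-box TTACGTAA and the CRE (TGACGTCA), a cAMP response element, were in 0 of 13 windows and in 0.119% and 1.79% of all. No motif overlapped another in the members' windows. None of these letters was found in the windows of Dbp, Nr1d1 and Npas2.

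Library totals were 17842090 to 28024003 counts in the joint set and 22041900 to 44371001 in the nodes. Joint libraries were rich in muscle RNA: the 12 muscle markers summed to a median of 202638 CPM in LST day 35, CPM being counts scaled to a common library size with TMM factors for composition. In the nodes the 6 B cell and 6 T cell markers were all present, with sums of 2184 to 4324 and 951 to 1396 CPM. Node libraries held varying muscle RNA, with 11 markers summing to between 23.7 and 1418 CPM. Their 7 adipocyte markers summed to between 76.6 and 8223 CPM, highest in the ContraImplant day 7 library of mouse 8. In bulk tissue, fewer cells of a type and less RNA per cell cannot be told apart. The labels do not tie joint replicates to separate animals, so the joint p-values cover only how far these libraries spread, which may be technical.

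Per kilobase of exon, the highest members in the joint were Nr1d1 at 44.9 CPM per kb (mean of the group means), Tef at 33.0, Nr1d2 at 22.2 and Dbp at 17.0. Per1 followed at 10.9, Clock at 4.15 and Per3 at 2.59, and Ciart, Per2 and Npas2 lay between 1.05 and 1.38 CPM per kb. In the nodes the order was Dbp at 18.4 CPM per kb, Nr1d1 at 14.6, Per1 at 13.9, Tef at 11.5 and Nr1d2 at 9.21. Clock, Per2, Per3 and Ciart lay between 1.59 and 3.14, and Npas2 was lowest at 0.303. Group means of neighbours such as Dbp, Nr1d1 and Per1 in the nodes covered overlapping ranges, 13.4 to 25.2, 8.35 to 22.1 and 12.5 to 15.6 CPM per kb. Exons of Nr1d1 overlap Thra, those of Dbp overlap Sphk2 and those of Tef overlap the antisense gene Gm17597, all on the opposite strand. The strand setting of the counting is not given in the sources used here, so reads in these overlaps cannot be told apart. Thra was at 50.7 to 70.7 CPM on RST day 3 and at 101 to 113 CPM in LST day 35, lower on day 3 as Nr1d1 was. Sphk2 was at 21.3 to 28.3 and 27.8 to 33.3 CPM, not higher on day 3 as Dbp was.

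In joint soft tissue the question was whether clock genes stood at the same level on each day. Per2, Dbp and Ciart rose on RST day 3 relative to LST day 35, and Nr1d1, Nr1d2 and Clock fell, though Nr1d2 and Clock no longer passed when libraries were scaled by their totals alone. Per2, a core repressor (chromosome 1, 91415982 to 91459324, minus strand, mm10), stood at 9.14, 14, 17.1 and 9.84 CPM on RST day 3 and at 2.07, 3.37, 3.58 and 3.89 CPM in LST day 35. Every RST day 3 library lay above every LST library. It rose by a log2 fold change of 1.95 ± 0.36 (SE, edgeR adjusted p = 5.24e-05). Per2 was at 11.7, 12.1, 13.2 and 17.8 CPM on RST day 7. It was at 2.90, 5.12, 7.40 and 11.3 CPM on day 14 and at 3.51, 6.01, 6.75 and 11.0 CPM on day 21. It was back among the LST values on RST day 35, at 1.95, 3.34, 3.35 and 5.18 CPM. Against LST day 35 the differences were 2.09 ± 0.36 on day 7, 1.05 ± 0.36 on day 14 and 1.08 ± 0.37 on day 21 (edgeR adjusted p = 1.76e-05, 0.0175 and 0.0315), and 0.09 ± 0.38 on day 35 (edgeR adjusted p = 0.978). On days 14 and 21 the libraries overlapped those of LST, and the day 14 call was lost without RST day 14 replicate 4 or LST day 35 replicate 1 (edgeR adjusted p = 0.115 and 0.0602). The day 21 call was lost without RST day 21 replicate 2 or 4 or LST day 35 replicate 1, 2 or 3 (edgeR adjusted p between 0.0525 and 0.155).

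**Figure D1:**
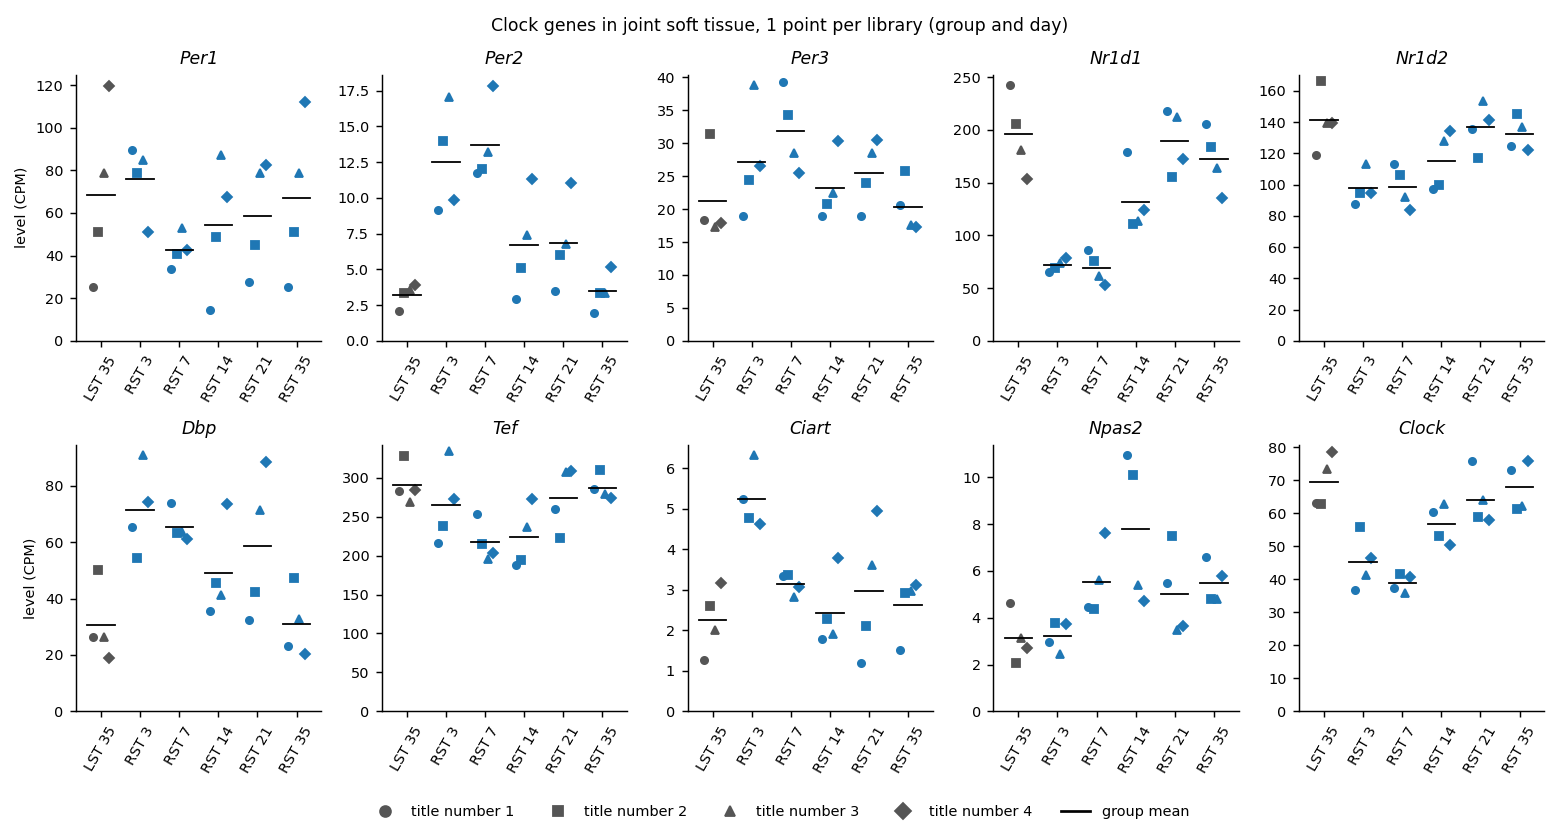
Level in CPM of each of the 10 genes in joint soft tissue, by group and day. Each point is 1 library, its shape the replicate number in the title, and black bars are group means. Per2 and Nr1d1 on RST days 3 and 7 lie outside the LST day 35 range, and Per1 spreads over 14.5 to 120 CPM.

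Per1, a repressor of the same family (chromosome 11, 69095217 to 69109960, plus strand), passed the test on no RST day against LST. It was at 89.8, 78.6, 84.7 and 50.9 CPM on RST day 3 and at 33.7, 40.7, 53.2 and 42.8 CPM on day 7. It was at 14.5, 48.7, 87.1 and 67.4 CPM on day 14, at 27.5, 44.8, 78.7 and 82.6 on day 21, at 25.4, 51.0, 78.8 and 112 on RST day 35 and at 25.2, 51.0, 78.8 and 120 in LST day 35. Its replicates differed up to 6.02-fold within a group. The log2 differences from LST lay between −0.69 ± 0.47 on day 7 and 0.15 ± 0.47 on day 3 (edgeR adjusted p = 0.193 and 0.794). Per3, the third of the family, passed on day 7 alone with TMM, at 25.4 to 39.3 CPM against 17.3 to 31.5 CPM in LST (log2 0.58 ± 0.22, edgeR adjusted p = 0.02). That call was lost without RST day 7 replicate 1 or LST day 35 replicate 1, 3 or 4 (edgeR adjusted p between 0.0595 and 0.0748). With library totals Per3 also passed on day 3 (log2 0.88, edgeR adjusted p = 0.000592), as it did without LST day 35 replicate 2 (log2 0.61, edgeR adjusted p = 0.018).

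The REV-ERB receptors went the other way. Nr1d1 (chromosome 11, 98767932 to 98775333, minus strand) was at 65.3, 68.9, 73.6 and 78.3 CPM on RST day 3 and at 86.1, 75.9, 61.4 and 53.4 CPM on day 7. In LST day 35 it was at 243, 205, 181 and 154 CPM. It was about as low in all 8 early libraries, and all lay below all LST libraries. It was higher, at 179, 111, 113 and 124 CPM on day 14, a rise of 0.93 ± 0.17 (log2) from day 7 (edgeR adjusted p = 0.000389). It was at 218, 156, 212 and 172 CPM on day 21 and at 206, 184, 164 and 135 on RST day 35. Against LST day 35 the log2 changes were −1.45 ± 0.18, −1.50 ± 0.18 and −0.57 ± 0.17 on days 3, 7 and 14 (edgeR adjusted p = 2.17e-07, 9.23e-08 and 0.00723). With library totals in place of TMM the first of these were −0.93 and −0.89, still past the threshold, and that of day 14 was not (−0.28). Nr1d2 fell by 0.53, 0.52 and 0.30 on the log2 scale on the same days (edgeR adjusted p = 0.000645, 0.000709 and 0.0444), but with library totals its values were −0.01, 0.11 and −0.01, so that its direction turned on day 7. It was at 87.6 to 113 CPM on day 3, 83.7 to 113 CPM on day 7, 97.4 to 134 CPM on day 14 and 119 to 166 CPM in LST. The day 14 call of Nr1d2 was also lost without RST day 14 replicate 1 or 2 or LST day 35 replicate 2, 3 or 4 (edgeR adjusted p between 0.065 and 0.174).

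Dbp, a D-box activator (chromosome 7, 45705088 to 45710203, plus strand), was at 65.3, 54.4, 90.9 and 74.4 CPM on RST day 3 and at 73.9, 63.2, 63.6 and 61.0 CPM on day 7. In LST day 35 it was at 26.3, 50.2, 26.5 and 19.1 CPM, below each early library. It was at 35.4, 45.4, 41.4 and 73.6 CPM on day 14, at 32.3, 42.4, 71.2 and 88.3 CPM on day 21, and at 23.0, 47.4, 32.8 and 20.3 CPM on RST day 35. It rose by 1.22 ± 0.32 on day 3, 1.10 ± 0.31 on day 7 and 0.94 ± 0.31 on day 21 (log2, edgeR adjusted p = 0.00164, 0.00324 and 0.0304). The day 21 call was lost without RST day 21 replicate 3 or 4 or LST day 35 replicate 1, 3 or 4 (log2 0.67 to 0.87). On day 14 Dbp did not pass with TMM, but did with library totals (log2 0.97, edgeR adjusted p = 0.00996). On that day Dbp also passed without the low-count filter, RST day 14 replicate 1 or LST day 35 replicate 2 (edgeR adjusted p = 0.0291, 0.046 and 0.0102). Tef, its relative, was at 196 to 254 CPM on day 7 and 268 to 328 CPM in LST, a log2 change of −0.42 ± 0.14 (edgeR adjusted p = 0.00757) that turned to 0.20 with library totals. On day 14 it was −0.38 ± 0.14 (edgeR adjusted p = 0.02), −0.10 with library totals, and the call was lost without RST day 14 replicate 1 or 2 or LST day 35 replicate 2 (edgeR adjusted p between 0.0697 and 0.074). Ciart, which blocks the activators, was at 5.25, 4.78, 6.32 and 4.64 CPM on day 3 and at 1.27, 2.60, 2 and 3.17 CPM in LST. It rose by 1.22 ± 0.32 on day 3 (log2, edgeR adjusted p = 0.00201) and with TMM passed on no other day, at 2.81 to 3.37 CPM on day 7 and 1.19 to 4.95 CPM over days 14 and 21. With library totals Ciart also passed on day 7 (log2 1.11, edgeR adjusted p = 0.00377).

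The activators parted: Clock fell on the TMM scale and Npas2 rose. Clock (chromosome 5, 76209868 to 76304792, minus strand) was at 36.9 to 55.8 CPM on day 3, 35.8 to 41.4 on day 7 and 62.8 to 78.5 in LST, with no overlap. Its log2 changes were −0.62 ± 0.12, −0.84 ± 0.12 and −0.29 ± 0.12 on days 3, 7 and 14 (edgeR adjusted p = 7.4e-05, 1.24e-06 and 0.0367). With library totals they were −0.09, −0.21 and −0.00, none past the threshold, and the day 14 call was lost without RST day 14 replicate 2 or 4 or LST day 35 replicate 3 or 4 (edgeR adjusted p between 0.0842 and 0.121). Npas2 (chromosome 1, 39193731 to 39363236, plus strand) was at 4.48, 4.36, 5.6 and 7.64 CPM on day 7 and at 10.9, 10.1, 5.41 and 4.72 CPM on day 14, against 4.62, 2.05, 3.15 and 2.71 CPM in LST. It rose by 0.81 ± 0.30 and 1.32 ± 0.29 (log2, edgeR adjusted p = 0.0161 and 0.000705). The day 7 call was lost without RST day 7 replicate 4 or LST day 35 replicate 2 (edgeR adjusted p = 0.0749 and 0.0647). On day 3 it was at 2.97, 3.77, 2.44 and 3.73 CPM, within its error of LST (0.05 ± 0.30, edgeR adjusted p = 0.895).

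**Figure D2:**
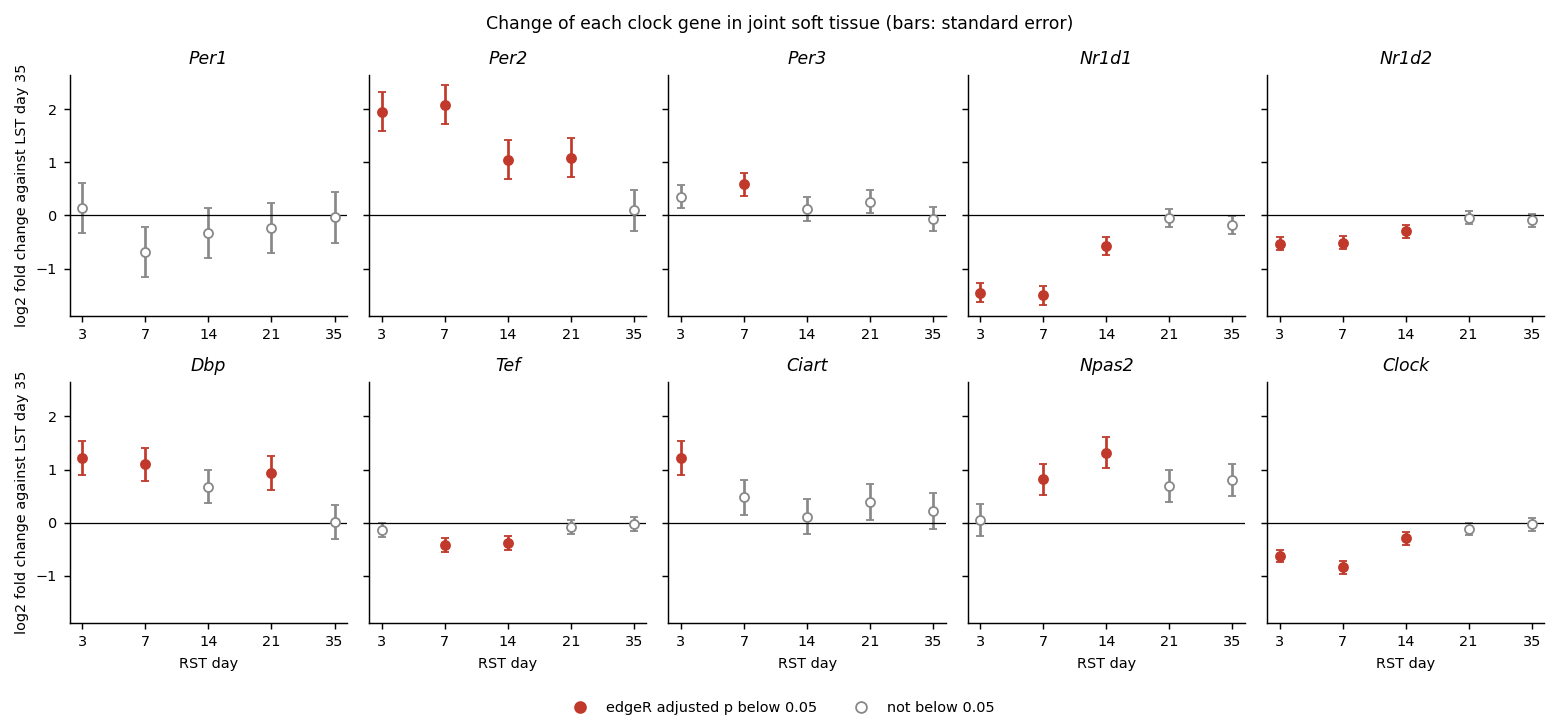
Log2 fold change of each gene on each RST day against LST day 35, with its standard error. Filled red points passed edgeR's test at an adjusted p below 0.05, and open points did not. Per2 and Dbp lie above 0 and Nr1d1, Nr1d2 and Clock below 0 on days 3 and 7, and all 10 points of day 35 are open, but scaled by library totals Nr1d2 lies above 0 on day 7 and Tef on days 3 and 7.

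Against LST day 35, 6 of 10 members passed on RST day 3, 8 on day 7, 6 on day 14, 2 on day 21 and 0 on day 35. Of all 16149 genes tested, 68.7%, 76.1%, 57.9%, 27.1% and 2.97% passed in those comparisons. The members' shares were thus near the background or below it, and the count itself says nothing particular to clock genes. Their median log2 difference was 0.10 on day 3 and 0.03 on day 7, beside 0.09 and 0.08 over all genes. The libraries of 6, 6, 2, 0 and 1 of the 10 members did not overlap those of LST, beside 61.7%, 71.9%, 53.8%, 28.2% and 12% of all genes tested. Calls higher and lower were 3 and 3 on day 3 and 4 and 4 on day 7. With library totals, which moved the median of all genes to 0.61 and 0.71, they were 5 and 1 on each of these days. The share of all calls that were higher than LST went from 56.2% and 53.9% with TMM to 85.0% and 82.9% with library totals on days 3 and 7, and from 57.6% and 80.0% to 87.6% and 91.8% on days 14 and 21. On RST day 35 the 10 members gave 0 calls in the edgeR fit over all 24 libraries, with 2021 of all genes at an unadjusted p below 0.05, and 0 in DESeq2. Between neighbouring RST days, 1 member passed from day 3 to 7 (Npas2, log2 0.77 ± 0.29, edgeR adjusted p = 0.0391), beside 41.2% of genes. Npas2 was lost there without RST day 3 replicate 1 or 3 or RST day 7 replicate 3 or 4 (edgeR adjusted p between 0.069 and 0.147). From day 7 to 14, 3 passed beside 38.9%: Per2 fell by 1.04 (edgeR adjusted p = 0.0189) and Nr1d1 and Clock rose, Clock by 0.54 ± 0.12 (edgeR adjusted p = 0.00126). Per2 was lost without RST day 7 replicate 4 or RST day 14 replicate 1 (edgeR adjusted p = 0.0657 and 0.0687), and Clock with library totals (log2 0.21). From day 14 to 21 and from day 21 to 35, 0 passed in edgeR, beside 0.737% and 3.97%, and DESeq2 called 1 in each (Nr1d1 and Dbp). Over all RST days 8 of 10 varied, all but Per1 and Per3, beside 79.6% of genes. Of the 8, Nr1d2 and Clock were lost with library totals, and Per3 passed there (edgeR adjusted p = 7.73e-05). Leaving out 1 library lost Dbp (RST day 35 replicate 1 or 4), Tef (RST day 7 replicate 3 or 4 or RST day 35 replicate 2) and Ciart (RST day 3 replicate 3).

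Of 17 other clock genes, 1 rose and 9 fell on RST day 3, 4 rose and 9 fell on day 7, 2 rose and 8 fell on day 14, 1 rose and 4 fell on day 21, and 0 passed on day 35. With library totals the split turned to 6 up and 4 down on day 3 and 11 up and 5 down on day 7. Of 10 genes known as rhythmic outputs in many tissues, 3 rose and 2 fell on day 3 and 3 rose and 4 fell on day 7. With library totals 5 rose and 0 fell on day 3 and 5 rose and 2 fell on day 7. Arntl, the partner of CLOCK, was at 9.38 to 14.4 CPM on day 3 and 40.5 to 52.8 CPM in LST (log2 −1.95 ± 0.18, edgeR adjusted p = 3.7e-09). Cry1, the PER partner, fell by 1.35 on day 3 (edgeR adjusted p = 6.08e-09). Timeless, a replication fork protein, rose by 1.47 (edgeR adjusted p = 4.51e-08). The mean log2 CPM of the 8 outputs and repressors minus that of Arntl, Npas2 and Clock was 1.90 ± 0.39 on RST day 3 and 1.5 ± 0.21 on day 7 (SD, n = 4). It was 0.66 ± 0.69 on day 14, 0.97 ± 0.72 on day 21, 0.44 ± 0.38 on RST day 35 and 0.68 ± 0.46 in LST. The early RST libraries, at 1.19 to 2.42, had little overlap with LST, at 0.12 to 1.23.

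The cell makeup of the joint samples moved along the same days. The 12 muscle markers, all of which fell on days 3 and 7, summed to 75861 to 101113 CPM on RST day 3 and 60266 to 99001 on day 7. They summed to 194456 to 213217 CPM in LST and 191051 to 193210 on RST day 35. The 10 monocyte and macrophage markers, all of which rose on day 3, summed to 1375 to 2240 CPM there and 65.0 to 94.3 in LST, and the 10 fibroblast and matrix markers to 28686 to 37636 CPM on day 7 and 1174 to 1411 in LST. Of the 7 adipocyte markers 6 fell on day 3, and their sum was 143 to 231 CPM there and 288 to 340 CPM in LST. Of 11 genes of the glucocorticoid response, 3 rose and 2 fell on day 3 and 3 rose and 5 fell on day 7, but 5 rose and 3 fell then with library totals. Of 16 immediate early genes, which respond within minutes to many signals, 4 rose and 2 fell on day 3 and 7 rose and 3 fell on day 7. The part of these shifts in the clock genes' differences was not tested, and hour, cell makeup and day cannot be told apart in this design.

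At day 35, libraries of the same replicate number lay close to each other in the clock genes. For Per1 the RST libraries, at 25.4, 51.0, 78.8 and 112 CPM for numbers 1 to 4, all but equalled the LST libraries of the same number, at 25.2, 51.0, 78.8 and 120 CPM. The ratio of RST to LST within a number was 0.937 to 1.01, while numbers differed 4.41-fold within RST and 4.76-fold within LST. Dbp was highest in number 2 and lowest in number 4 of each label, and Nr1d1 highest in number 1 and lowest in number 4. Over the 10 members, libraries of the same number differed by a mean of 0.128 in log2 CPM (4 pairs, 0.109 to 0.144, after subtracting group means) and those of different numbers by 0.466 (12 pairs, 0.232 to 0.651). The ranges did not overlap. The number was then used as a factor in edgeR, a test chosen after these values were seen. In the 8 day 35 libraries 4 of 10 members varied with it, beside 2.32% of 14154 genes: Per1 (edgeR adjusted p = 3.63e-07, rank 5 of all genes), Dbp (0.00034), Nr1d1 (0.00262) and Per3 (0.0117). Arntl did not pass (edgeR adjusted p = 0.052). Fkbp5, a glucocorticoid-induced chaperone, ranked 11 (edgeR adjusted p = 3.83e-06), and no other gene of the glucocorticoid list was looked up in this test. The labels do not say whether libraries of the same number share a mouse or a time of collection.

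**Figure D3:**
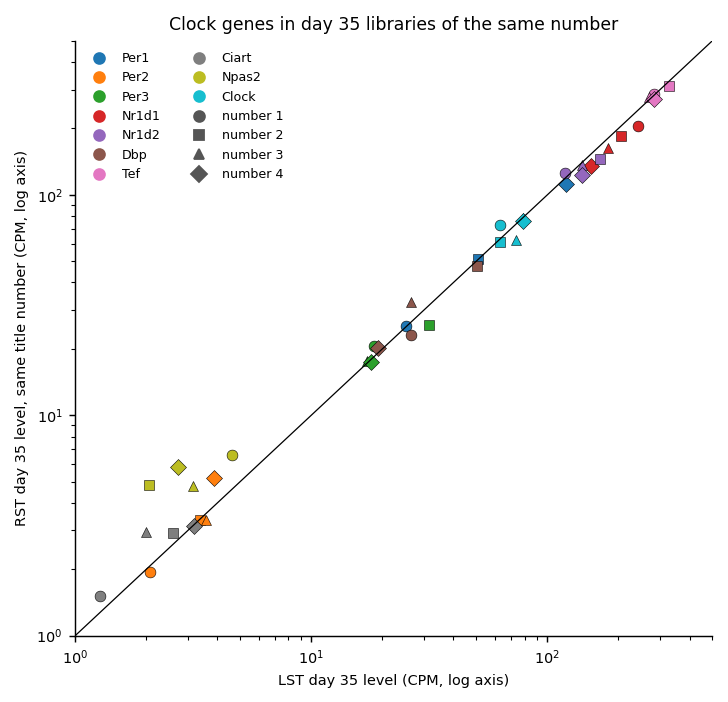
Level of the 10 genes in RST day 35 against the LST day 35 library with the same title number, in CPM on log axes, with the line of equality. Colour gives the gene and shape the number. The 4 Per1 points lie on the line, at ratios of 0.937 to 1.01, and the 4 Npas2 points lie above it, at 1.43 to 2.34.

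Npas2 was the exception. It was higher in RST than in the LST library of the same number each time, at ratios of 1.43, 2.34, 1.52 and 2.14. The RST libraries, at 6.60, 4.80, 4.78 and 5.80 CPM, did not overlap those of LST, at 4.62, 2.05, 3.15 and 2.71 CPM. Npas2 was the only member of the 10 with that pattern in this comparison, a share near the 12% of all genes tested. The difference of 0.81 ± 0.30 (log2) did not pass in the fit over all 24 libraries (edgeR adjusted p = 0.186). Nr1d1 was lower in RST within each number, at ratios of 0.846 to 0.904, a difference of −0.19 ± 0.17 (edgeR adjusted p = 0.815). A fit of the 8 day 35 libraries alone with the number as a block, added after seeing the data, called both. Npas2 was at 0.81 and Nr1d1 at −0.20 there (log2, edgeR adjusted p = 0.00848 and 0.0242). The share of all genes called in that fit is not given here, so the count of calls says nothing particular to clock genes. What a shared number means is not in the labels.

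On earlier days the numbers were less orderly. The library numbered 1 was the lowest of its group for Per1 on RST days 7, 14, 21 and 35 and in LST, and for Per2 in all 6 joint groups. Days 14 and 21 also lay close within numbers, at a mean difference of 0.218 for the same number and 0.565 for different numbers, but days 3 and 7 did not (0.321 and 0.252). The ranges of days 14 and 21 overlapped, at 0.124 to 0.321 and 0.230 to 0.949. Over all genes tested, deviations from group means correlated between these days at 0.092 to 0.678 for the same number. For other numbers they correlated at −0.564 to 0.293, so the likeness was not particular to clock genes. Over all 24 libraries 0 genes varied with the number in edgeR, or 0%, with 1356 at an unadjusted p below 0.05. By p in that test Per2 ranked 5, Per1 46, Nr1d1 205 and Ciart 695 of 16149 genes, and the other members ranked 5778 to 15808. Dbp, at 8006, and Per3, at 9593, were among the latter, though they had passed in the day 35 libraries. Within joint groups Per1 had an SD of 0.80 in log2 CPM, larger than that of 98.8% of genes, and Per2 one of 0.56, larger than 91.6%. In the nodes Per1 was among the steadier genes, with an SD of 0.13, larger than 33.7%.

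Replicates of a joint group also differed together in part of the rest of the loop. After subtracting group means, Dbp correlated over the 24 libraries with Per3 (Pearson r = 0.798, Spearman rho = 0.731), Tef (0.687, 0.642) and Nr1d2 (0.628, 0.613). The permutation p-values of r were 7e-05, 0.00025 and 0.00221, and 0.0014, 0.0025 and 0.00631 adjusted over 20 relations. Those of rho were 0.00763, 0.00763 and 0.01 after adjustment. Dbp ran against Arntl (r = −0.708, rho = −0.648), Clock (−0.666, −0.729) and Npas2 (−0.634, −0.651), with permutation p-values of 0.00054, 0.00181 and 0.00579 for r. Adjusted, these were 0.0036, 0.00631 and 0.0116, and those of rho 0.00763, 0.00763 and 0.0119. Ciart was close to the threshold (r = 0.624, rho = 0.563, adjusted permutation p = 0.0415 and 0.0549). Per3, Tef, Nr1d2 and Ciart thus ran with Dbp, and the 3 activators against it. Relations with Per1 (r = 0.202, rho = 0.127), Per2 (0.446, 0.301) and Nr1d1 (0.117, 0.146) did not pass (adjusted permutation p = 0.517, 0.113 and 0.662). Without the 2 libraries whose Dbp lay farthest from the median, the relations that had passed kept r of 0.554 to 0.739 in size. The permutation treats the 24 libraries as independent, and those of day 35 with the same number lay close. With library totals the relations with Ciart and Npas2 no longer passed.

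Among other genes with a mean count of at least 50, the 5 most like Dbp within joint groups were Thrsp, Ankrd24, Golga7b, Mlec and Rab40b, at r of 0.795 to 0.735 over 24 libraries and 11554 genes. The 5 least like it were Nup35, Igf1r, Hnrnpu, Tbk1 and Nxpe3, at r of −0.838 to −0.747. In size these r were larger than that of every clock gene with Dbp except Per3. They are descriptions across libraries that share depth and makeup. Over levels with the group means kept in, the 5 highest were Pak1, Mta3, E2f2, Spint2 and Tlcd2, at 0.799 to 0.770.

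In the lymph nodes the question was whether Implant nodes differed from nodes without surgery. In edgeR Nr1d1 was the only member to pass in any pair of node groups. It was at 34.8, 36.4 and 22.8 CPM in Implant day 14 and at 48.9, 82.6 and 72.5 CPM in NoImplant day 14, without overlap. The log2 change was −1.12 ± 0.31 (edgeR adjusted p = 0.0485), 1 of 10 members beside 5.97% of 18312 genes. Over the alternatives tried the adjusted p ran from 0.00528 in DESeq2 to 0.463 with an adipocyte covariate, given with the marker values of the nodes. DESeq2 also called Npas2, at 1.47, 2.82 and 2.54 CPM in Implant and 0.952, 0.642 and 1.22 CPM in NoImplant nodes (DESeq2 adjusted p = 0.0459, edgeR adjusted p = 0.089). The call of Nr1d1 rested on few libraries: it was lost without NoImplant day 14 replicate 2 or 3 or without any of the 3 Implant day 14 replicates (edgeR adjusted p between 0.0762 and 0.176). Thra, which shares exons with it, was at 38.7, 36.2 and 32.1 CPM in Implant day 14 and 43.2, 61.4 and 68.6 in NoImplant day 14. Of 16 other clock genes tested, 2 fell in this comparison, Hlf, a D-box activator, by 1.29 and Nfil3, a D-box repressor, by 0.48 (edgeR adjusted p = 0.0346 and 0.043). The day 14 ranges of 7 of 10 members did not overlap between Implant and NoImplant nodes, beside 32.9% of all genes tested. Per2, Npas2 and Clock were the higher ones and Nr1d1, Nr1d2, Dbp and Tef the lower ones in Implant nodes. Dbp was at 50.1, 38.3 and 35.2 CPM in Implant and at 57.9, 83.5 and 73.6 CPM in NoImplant nodes, a difference that did not pass (log2 −0.80 ± 0.32, edgeR adjusted p = 0.122).

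On day 7 Nr1d1 was at 25.9, 24 and 27.2 CPM in Implant nodes, 46.8, 51.6 and 36.5 in NoImplant nodes and 32.1, 85.9 and 40.1 in ContraImplant nodes. The Implant libraries lay below all others, but the differences of −0.81 ± 0.31 and −1.03 ± 0.32 did not pass (edgeR adjusted p = 0.193 and 0.105). Within a mouse Nr1d1 was lower in the Implant node in 6 of 6 mice, at ratios of 0.279 to 0.807, and Nr1d2 in 6 of 6, at 0.644 to 0.977. The share of all genes lower in 6 of 6 is not given here. The adipocyte marker sum was lower in the Implant node of mice 8, 25, 26 and 27 and higher in that of mice 7 and 9. In a fit with the mouse as a block, the paired change of Nr1d1 was −0.90 ± 0.26 on day 7 and −0.60 ± 0.26 on day 14 (edgeR adjusted p = 0.118 and 0.351). Dbp was lower in 5 of 6 mice, by the largest ratio in mouse 8, at 43.4 CPM in the Implant and 126 CPM in the ContraImplant node.

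**Figure D4:**
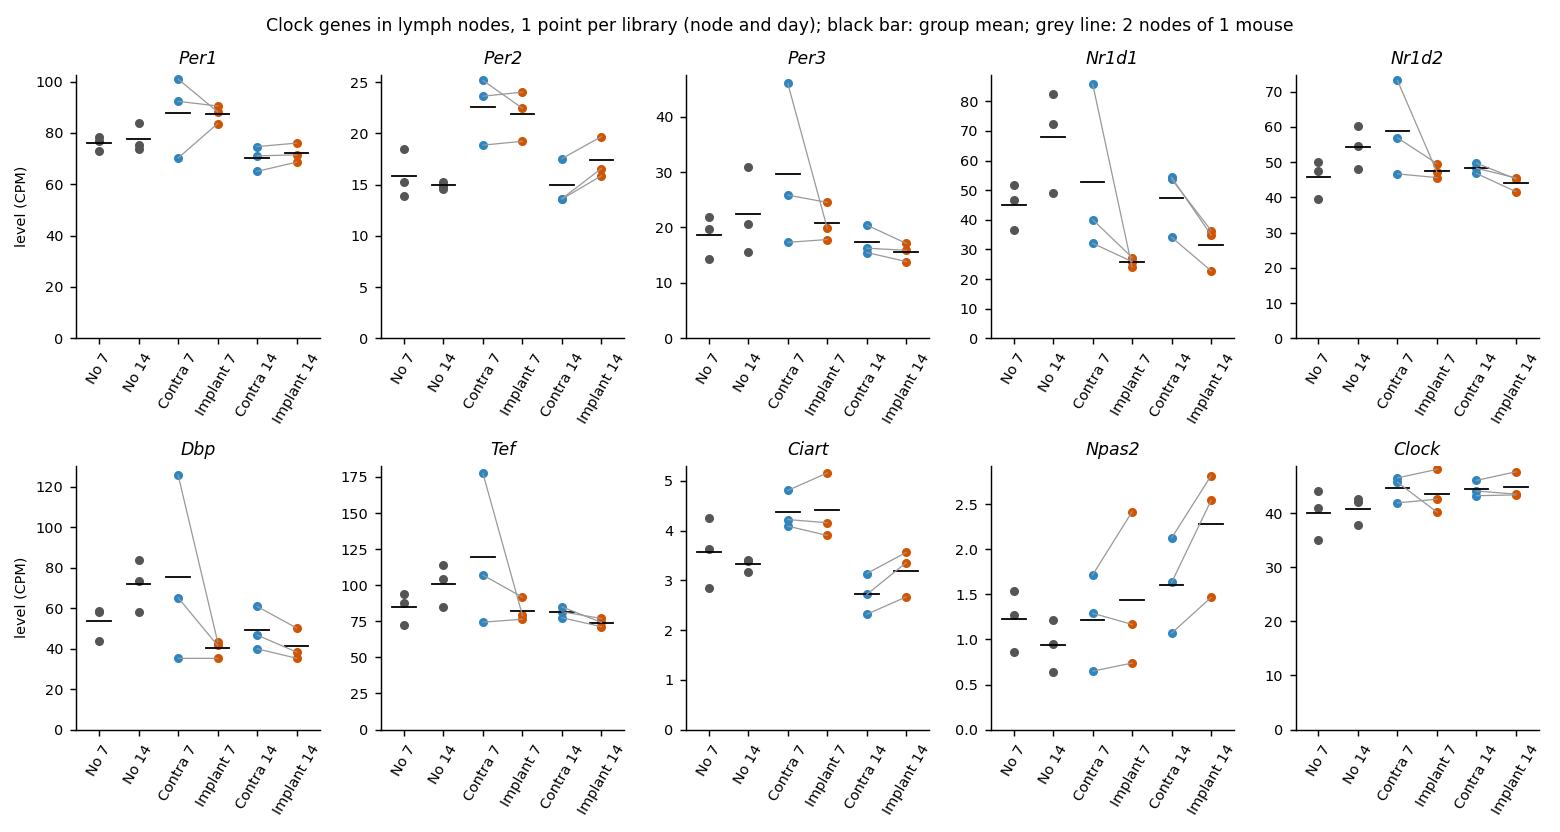
Level in CPM of each of the 10 genes in lymph nodes by group and day (No, Contra and Implant stand for NoImplant, ContraImplant and Implant). Each point is 1 library, black bars are group means and grey lines join the nodes of a mouse. Mouse 8 has the highest ContraImplant day 7 point for Dbp, at 126 CPM, and for Nr1d1, at 85.9 CPM.

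The other node comparisons gave 0 calls among the members in edgeR. These were Implant against NoImplant on day 7 (0.0437% of genes called, 3326 at an unadjusted p below 0.05) and Implant against ContraImplant on day 7 (0.715%, 3764) and day 14 (0%, 1550). They were also ContraImplant against NoImplant on day 7 (0%, 1349) and day 14 (0%, 1062), and day 14 against day 7 in Implant (0%, 1566), ContraImplant (0%, 970) and NoImplant nodes (0.0164%, 3456). The interactions of day with the Implant differences were 0% as well, with 921 genes at an unadjusted p below 0.05 against NoImplant and 334 against ContraImplant. DESeq2 called 2 members in Implant against ContraImplant on day 7 (Nr1d1 and Dbp), 1 in ContraImplant nodes between days (Per2) and 0 in the others of these. Without ContraImplant day 7 replicate 1 (mouse 7), edgeR called 4 members in Implant against ContraImplant on day 7: Nr1d1, Nr1d2, Dbp and Tef. Over the fits of this comparison that left out 1 library, calls among all genes ran from 0 to 2030, beside 131 in the full fit. Over all 6 node groups Per2 alone varied (edgeR adjusted p = 0.029), 1 of 10 beside 7.69% of genes. It was at 18.8, 25.2 and 23.6 CPM in ContraImplant day 7 and 19.2, 22.4 and 24 in Implant day 7, and at 13.6 to 19.7 CPM in the other groups, which overlapped these only at their low end. That call was lost without any of the 3 Implant day 7 replicates, ContraImplant day 7 replicate 3, NoImplant day 7 replicate 2, NoImplant day 14 replicate 2 or 3, ContraImplant day 14 replicate 1 or 2, or Implant day 14 replicate 2 (edgeR adjusted p between 0.0523 and 0.0964). Per1 was at 65.0 to 101 CPM in all 18 libraries. Clock was at 35.0 to 48.1 CPM, Nr1d2 at 39.5 to 73.2 CPM, Tef at 71.3 to 177 CPM, Per3 at 13.8 to 46.0 CPM, Ciart at 2.32 to 5.16 CPM and Npas2 at 0.642 to 2.82 CPM over the same libraries.

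Adipocyte RNA moved with the same genes. The 7 adipocyte markers summed to 8223 CPM in the ContraImplant day 7 node of mouse 8, where Dbp, Nr1d1, Nr1d2, Per1, Per2, Per3 and Tef had their highest node values. In the other ContraImplant day 7 nodes they summed to 76.6 CPM (mouse 7, Dbp 35.2 CPM) and 489 CPM (mouse 9, Dbp 65.1 CPM). On day 14 they summed to 128, 172 and 514 CPM in Implant nodes and to 681, 3724 and 3871 CPM in NoImplant nodes, ranges that did not overlap. A fit with this sum as a covariate was added after the values were seen. Within groups 5 of 10 members rose with the sum, beside 13.8% of genes changing either way. Per doubling of the sum, Dbp rose by 0.24 ± 0.03, Per3 by 0.21 ± 0.03, Nr1d1 by 0.21 ± 0.04, Tef by 0.16 ± 0.02 and Nr1d2 by 0.09 ± 0.01 on the log2 scale (edgeR adjusted p = 2.7e-05, 0.000366, 0.00149, 3.92e-05 and 0.000577). Per1 gave 0.05 ± 0.02 and Per2 0.04 ± 0.03 (edgeR adjusted p = 0.0555 and 0.479). Within groups the sum spread most in ContraImplant day 7, from 76.6 to 8223 CPM, so these slopes lean most on its 3 libraries. With the covariate the Implant difference of Nr1d1 on day 14 was −0.41 ± 0.22 and did not pass (edgeR adjusted p = 0.463). As the sums did not overlap on day 14, the group and the adipocyte level cannot be told apart there. In Implant against ContraImplant on day 7 the covariate fit called 3 members lower in Implant nodes, Nr1d1 by 0.82, Dbp by 0.63 and Tef by 0.38 on the log2 scale (edgeR adjusted p = 0.0236, 0.0176 and 0.0291). That fit leans on the ContraImplant day 7 libraries that it compares. The share of all genes it called is not given here, so the count says nothing particular to clock genes.

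**Figure D5:**
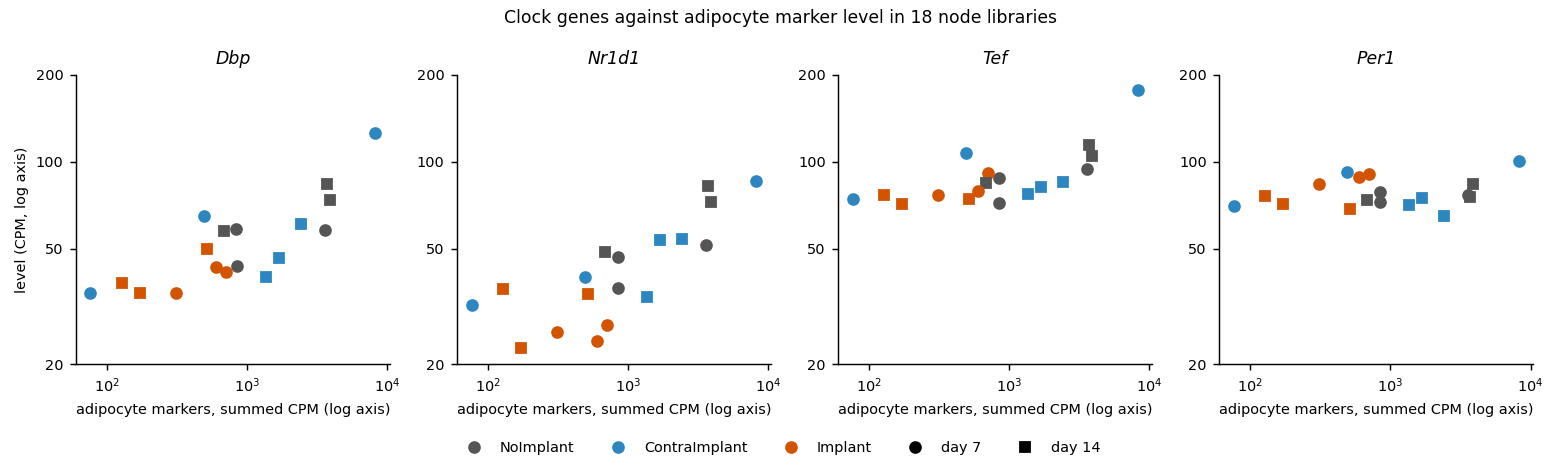
Level of Dbp, Nr1d1, Tef and Per1 against the summed CPM of 7 adipocyte markers in 18 node libraries, on log axes. Colour gives the node type and shape the day. The ContraImplant day 7 node of mouse 8 stands at the right, at 8223 summed CPM, and Per1 stays between 65.0 and 101 CPM over the whole range.

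Nodes of a mouse were closer in the clock genes than nodes of different mice, by a mean log2 difference of 0.347 against 0.513 on day 7 and 0.225 against 0.303 on day 14. The ranges overlapped on each day, for instance 0.211 to 0.238 in 3 mice against 0.163 to 0.527 in 6 mixed pairs on day 14. With 1 value per mouse (n = 12), Dbp correlated within groups with Tef (r = 0.926, rho = 0.888), Per3 (0.894, 0.923), Nr1d2 (0.877, 0.860), Nr1d1 (0.852, 0.790) and Ciart (0.685, 0.671). The permutation p-values of r were 0.00212, 0.00122, 0.00278, 0.00573 and 0.0249, and 0.00631, 0.0061, 0.00695, 0.0116 and 0.0415 adjusted over the same 20 relations. Those of rho were 0.00763, 0.00763, 0.0128, 0.0356 and 0.0549 after adjustment. Those with Per1, Per2, Npas2, Clock and Arntl did not pass (adjusted permutation p between 0.113 and 0.838). Without the 2 mice farthest from the median of Dbp, the r of those that passed were 0.649 to 0.888. Over the 18 node libraries the genes most like Dbp within groups were Sntb1, Atraid, Fasn, Pcx and Thrsp, at r of 0.959 to 0.949. Fasn, fatty acid synthase, and Thrsp are lipid synthesis genes. The least like it were Slc15a3, Diexf, Icosl, Syvn1 and Hdac10, at −0.991 to −0.921, and over levels with group means kept in the highest were Sult1a1, Pla2g12a, Dgcr6, Syngr1 and Ntrk3, at 0.943 to 0.926.

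The mean log2 CPM of outputs minus activators in the nodes was 1.51 ± 0.04 in NoImplant day 7, 1.85 ± 0.29 in NoImplant day 14, 1.81 ± 0.64 in ContraImplant day 7 and 1.24 ± 0.33 in ContraImplant day 14 (SD, n = 3). In Implant nodes it was 1.37 ± 0.44 on day 7 and 0.91 ± 0.29 on day 14. Implant day 14 libraries, at 0.65 to 1.22, lay below the NoImplant day 14 libraries, at 1.66 to 2.18. The nodes thus spread over a range of group means of 0.91 to 1.85, and the joint groups over 0.44 to 1.90.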

How the data were processed

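Gene counts were deposited by the authors as 2 tables, 1 for joint soft tissue (24 libraries) and 1 for lymph nodes (18), whole numbers with no normalization. Reads had been trimmed with fastp and aligned with STAR to mm10, per the submitters' processing notes. For the counting program, annotation and strand setting: not given in the sources used here. Per the labels' protocols, tissue was flash frozen, RNA came from Trizol (joint) or RLT lysis (nodes), and libraries were made with a NEBNext Ultra II kit from 100 ng. Identifiers were matched to symbols through GENCODE M21 (36591 of 36604 joint and 54723 of 54752 node genes). Promoter windows came from RefSeq on GRCm38.p6.

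Each tissue was fitted alone with 1 mean per group in edgeR 4.0.16 (R 4.3.3): filterByExpr with a minimum count of 10 (16149 joint and 18312 node genes kept), TMM scaling, the quasi-likelihood F test, and Benjamini-Hochberg adjustment over all genes tested, with calls at 0.05. Log2 CPM used a prior count of 2. Relations with Dbp were tested with 100000 permutations of libraries within groups (1 value per mouse in the nodes), adjusted over 20 relations. DESeq2 1.42.0, other scalings, no filter, blocks and leaving out each library were tried. The fitting was tested on simulated data. Python 3.11.15 with numpy 2.4.6, scipy 1.17.1, pandas 2.3.3 and matplotlib 3.10.9 did the rest.

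All 10 genes were tested in every comparison, but not every value is printed here. Of each list, up to 4 genes of smallest adjusted p could be named, and of the genes most or least like Dbp the 5 at each end with a mean count of at least 50. The genes and lists were chosen with earlier results of these data known. Implant and ContraImplant nodes were paired by the mouse number in the table's headers. Deviations from group means of the nodes of a mouse correlated at 0.106 to 0.402 in the 6 mice.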

Additional observations from a re-analysis of the deposited data

Results flagged for a closer look

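In groups of 4 joint libraries, 60 sets of values (10 genes in 6 groups) were searched for a library standing apart by the gap to its nearest neighbour over the range (Dixon's criterion at 95%). Chance gives about 1 in 20 such sets. Per3 was at 31.5 CPM in LST day 35 replicate 2, with the other 3 libraries at 17.3 to 18.4 CPM, a gap of 0.924 of the range. Without this library Per3 passed on RST day 3 (log2 0.61, edgeR adjusted p = 0.018). Ciart was at 1.52 CPM in RST day 35 replicate 1, with the others at 2.91 to 3.13 CPM, a gap of 0.864 of the range.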

How the results depend on the processing

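Counts of members called (of 10) kept within 1.5 times the count with TMM and edgeR in all comparisons and alternatives except these. With library totals only, 3 were called on RST day 14 against LST and 5 from day 7 to day 14. Tef reversed to 0.39 on RST day 3, 0.20 on day 7 and −0.30 from day 7 to 14, and Nr1d2 to 0.11 on day 7, and the correlation of Dbp within joint groups was 0.61 with Ciart and −0.50 with Npas2. These changes come with the scaling, which moved the median of all genes. Without the low-count filter 2 were called from day 3 to 7, 2 from day 21 to 35 and 2 over the node groups. Fitting only the groups compared gave 1 for RST day 21 against LST, 3 for day 7 against 3, 1 for Implant against NoImplant on day 7 and 2 on day 14. DESeq2 gave 1 for day 21 against 14, 1 for day 35 against 21, 2 for Implant against ContraImplant on day 7, 2 for Implant against NoImplant on day 14, 1 for ContraImplant day 14 against 7 and 4 over the node groups. The adipocyte covariate, added after seeing the data, gave 3 for Implant against ContraImplant on day 7, 0 for Implant against NoImplant on day 14, 4 for ContraImplant day 14 against 7 and 6 over the node groups. The shares of all genes called with that covariate are not given here. Without Per1 the output minus activator level was lower in every node group. It was 1.32 in NoImplant day 7 and 1.69 in NoImplant day 14. In ContraImplant nodes it was 1.65 on day 7 and 1.06 on day 14, and in Implant nodes 1.15 and 0.70. Apart from the scaling, the cause was not tested.

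Leaving out 1 library gave 0 to 2 members for RST day 7 against 3, 3 to 6 for day 14 against LST, 0 to 2 for day 21 against LST, 0 to 3 for day 21 against 14 and 0 to 2 for day 35 against 21. In the same order, calls among all genes ran from 5655 to 6516, 7663 to 9555, 2502 to 4937, 2 to 4466 and 35 to 1884. In the nodes leaving out 1 library gave 0 to 1 members for Implant against NoImplant on day 14, 0 to 4 for Implant against ContraImplant on day 7 and 0 to 6 over the groups. Calls among all genes ran there from 0 to 1557, 0 to 2030 and 200 to 2961.

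The title number as a replicate block in the joint gave 3 for day 7 against 3, 1 for day 21 against 14 and 1 for day 35 against 21. The labels give these libraries only a shared number. Deviations of same-numbered joint libraries correlated at −0.366 to 0.678 (60 pairs, median 0.029), and 7 of the 8 day 35 libraries correlated best with their own number. A replicate block within the day 35 libraries only, added after seeing the data, called 2 members in RST against LST, Npas2 (0.81 ± 0.16, edgeR adjusted p = 0.00848) and Nr1d1 (−0.20 ± 0.05, 0.0242). The title number as a replicate block gave 2 over the node groups. The shares of all genes called with the title number as a block, in the day 35 libraries too, are not given here. The mouse as a replicate block left the members' calls at 0 in Implant against ContraImplant, but all genes called on day 7 went from 131 to 18.

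Among single genes, besides the 4 that reversed, 73 results came to pass and 72 ceased to pass under an alternative. The other 3391 passed, or did not pass, as before. Of these 3391, 171, over 78 gene and comparison pairs, changed sign without passing either way. Depth limits Npas2 in the nodes most, at 18 to 73 counts per library.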
